A study of Mus musculus with 29 samples.

Results

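The table of mouse RNA polymerase III (Pol III) loci analysed here holds 40 genes for tRNA-Ala, the tRNA that carries alanine, and 606 other loci, and 433 of all these loci are tRNA genes. The 40 members were taken by the isotype in their name and comprise 19 genes with the anticodon AGC, 10 with CGC and 11 with TGC. Occupancy by RPC4, a subunit of Pol III, was measured by ChIP-seq in liver of male C57/BL6 mice of 12 to 14 weeks that were fed at night. Livers were taken before partial hepatectomy (PH, the removal of the larger part of the liver), which is called TP0, and 36 h (TP36), 48 h (TP48) and 60 h (TP60) after PH. The operations were done early in the light phase of a day with equal light and dark phases. TP36 and TP60 therefore fall in the dark phase, when food was given, and TP48 falls in the light phase. At TP36 and TP60 time of day and feeding cannot be told apart from PH. A library was made from the pooled livers of 3 mice, and there were 2 libraries, replicates 1 and 2, for each time point, so that the p-values below measure the spread between pools. No transgene, mutation or drug was used in any group, the TP0 livers are the baseline, input chromatin enters the scores, and the study asked how Pol III occupancy changes when resting liver cells re-enter division. The other samples of the 29 in the series were not analysed here.

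tRNA genes are short genes that Pol III transcribes from promoters lying inside the gene. The factor TFIIIC binds 2 internal elements, the A box and the B box, and brings in TFIIIB, which recruits Pol III, and transcription ends at a run of T just after the gene. A vertebrate genome holds many copies of the gene for each tRNA, and alanyl-tRNA synthetase recognises tRNA-Ala mainly by a G:U wobble pair in its acceptor stem. In the mature tRNA with the anticodon AGC, the first anticodon base is converted to inosine.

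The values are RPC4 scores, the log2 ratio of ChIP over input in a window that reaches 150 bp beyond each end of the gene, and each library has a cutoff above which a locus counts as occupied. The cutoffs were 0.81 to 0.87 in the replicate 1 libraries and 1.33 to 1.55 in the replicate 2 libraries. The median score over all loci was 1.36 and 1.60 at TP0 (replicates 1 and 2 here and below), 3.42 and 2.99 at TP36, 3.02 and 3.38 at TP48, and 2.98 and 3.86 at TP60. The replicates differed in level. Of the 19 tRNA-Ala genes above the cutoff in at least 6 of the 8 libraries, all 19 were higher in replicate 1 at TP36 and all 19 were higher in replicate 2 at TP60, as were 18 of them at TP48. The depth of the libraries is unknown, and in whole liver more Pol III per cell and more cells with Pol III at a gene cannot be told apart.

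The sequences below are those of the main groups of genes whose scores are described afterwards, printed so that copies and near copies can be compared. They were read from the NCBI37 genome and are written 5′ to 3′ on the gene's strand, with capitals for matches to wider forms of the A box (TAGC, 2 bases of any kind, A, another 2 or 3, and GG, within the first 25 bases) and of the B box (G, any base, TC, any base, A, any 2 bases and CC), and positions are counted from 1 at the 5′ end. The first set is from the 8 AGC genes of 73 bases whose B box reads GATCGATGCC. n-Ta10 has the same sequence as n-Ta11 and n-Ta12, and n-Ta7 is their near copy.
n-Ta10: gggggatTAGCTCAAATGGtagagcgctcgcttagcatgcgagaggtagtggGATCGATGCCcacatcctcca
n-Ta7: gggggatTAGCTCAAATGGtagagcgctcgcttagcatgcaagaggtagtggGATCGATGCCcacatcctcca
Relative to n-Ta10, n-Ta7 carries G41A, outside the letters of both boxes. The second set is of 72 bases and is shown because its members with nearly the same letters differed widely in score. n-Ta17 is identical with n-Ta16, n-Ta29 with n-Ta28, and n-Ta38 with n-Ta39.
n-Ta17: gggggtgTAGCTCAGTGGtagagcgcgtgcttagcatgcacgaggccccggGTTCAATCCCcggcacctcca
n-Ta18: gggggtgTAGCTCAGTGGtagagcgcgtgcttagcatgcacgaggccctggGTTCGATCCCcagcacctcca
n-Ta29: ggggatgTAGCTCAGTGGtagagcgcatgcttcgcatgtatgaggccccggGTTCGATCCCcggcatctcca
n-Ta38: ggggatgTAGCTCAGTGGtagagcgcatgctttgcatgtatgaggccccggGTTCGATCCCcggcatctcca
n-Ta40: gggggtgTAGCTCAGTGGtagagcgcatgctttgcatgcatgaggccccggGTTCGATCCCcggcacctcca
n-Ta18 differs from n-Ta17 by C49T, A56G and G63A. n-Ta29 (CGC) and n-Ta38 (TGC) differ from each other only by C33T, written from n-Ta29 to n-Ta38, which changes the anticodon, and n-Ta40 differs from n-Ta38 by A5G, T39C and T67C. The third set stands for the copies on chromosome X, none of which was occupied.
n-Ta24: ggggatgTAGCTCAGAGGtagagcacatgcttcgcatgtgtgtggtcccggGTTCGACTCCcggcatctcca
n-Ta35: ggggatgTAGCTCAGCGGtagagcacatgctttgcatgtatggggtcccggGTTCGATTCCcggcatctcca
From n-Ta38 to n-Ta35 there are 5 changes (T16C, G25A, A43G, C46T and C59T), the last of them inside the B box letters, and from n-Ta29 to n-Ta24 there are 7.

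Of the 40 genes, 20 were never occupied. At TP0, 16 tRNA-Ala genes (40%) were above the cutoff of at least 1 library, and the count was 19 for TP36, 20 for TP48 and 19 for TP60. At any time point 20 of 40 were (50%), against 278 of the 393 other tRNA genes (70.7%) at any time point. The remaining 20 tRNA-Ala genes stayed below the cutoff in all 8 libraries, with scores between -0.99 and 0.78 and a median of 0.00. The 20 genes that were occupied split again: 19 were above the cutoff in 6 or more libraries and reached scores of up to 6.90, while n-Ta8 on chromosome 4 passed it in a single library.

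The silent and the occupied genes lay in different places. All 12 tRNA-Ala genes of chromosome 13 and none of the 14 of chromosome X were occupied, and of the 14 on the other chromosomes 8 were. Outside chromosome X, 20 of 26 tRNA-Ala genes (76.9%) were occupied, against 277 of 386 other tRNA genes (71.8%); this split was chosen after the data were seen. Of the other tRNA genes of chromosome X, 1 of 7 was occupied. Of the 94 other tRNA genes of chromosome 13, 92 (97.9%) were above a cutoff at TP0 or TP36, so occupancy there was not particular to tRNA-Ala genes. The anticodons followed the same split, since the 13 genes of a cluster at chrX:132892141-133124975 hold 6 of the 10 CGC genes and 7 of the 11 TGC genes and no AGC gene. Occupied were 13 of 19 AGC genes, 3 of 10 CGC genes and 4 of 11 TGC genes, and outside chromosome X 13 of 18, 3 of 4 and 4 of 4.

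The 13 genes of the chromosome X cluster were at background while keeping the sequence features of tRNA-Ala genes. All 13 matched both wider boxes, 11 of them also the exact boxes (for the A box TAGC, any 2 bases, AG, any base and GG, and for the B box GGTTCGA, any 2 bases and CC), all 13 had a run of TTTT within 50 bases after the gene, and all 13 had G at base 3 and T at the 4th base from the end, the positions of the acceptor-stem wobble pair. Their scores ranged from -0.68 to 0.78 with a median of -0.01. The highest was 0.78 for n-Ta30 in replicate 2 at TP60, under that library's cutoff of 1.33, and the next were 0.61 for n-Ta24 and 0.54 for n-Ta35. Several are copies of one another: n-Ta24, n-Ta25 and n-Ta26 were identical, as were n-Ta35, n-Ta36 and n-Ta37 and also n-Ta32 and n-Ta33, and within these sets the 100 bases upstream were 93.0% to 100.0% identical, so the cluster does not amount to 13 independent genes. Up to 100% of the score of n-Ta21, n-Ta25 and n-Ta26 in a library came from fragments that match several places in the genome, against at most 2.79% for any of the 20 occupied genes, and for n-Ta24 the share was at most 13.4%. What this share contributes to the low scores was not tested. All B boxes of the cluster read GTTCGATTCC (8 genes), GTTCGACTCC (4 genes) or GTTCAATTCC (1 gene), and none of the 19 genes above the cutoff in 6 or more libraries had any of these 3 forms, an observation made after the sequences were seen. Among other tRNA genes 47 of 54 (87.0%) with GTTCGATTCC, 14 of 15 (93.3%) with GTTCGACTCC and 2 of 5 with GTTCAATTCC were occupied.

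The other 7 silent genes kept fewer of the family's sequence features. None of them matched both wider boxes, 3 had the G and T of the wobble pair, and 5 lay inside a protein-coding gene, against 1 of the 19 genes above the cutoff in 6 or more libraries (n-Ta38, in an intron of Trim7). n-Ta1 lay in a UTR exon of Cdkn2aipnl and n-Ta2 in one of Mmgt1, while n-Ta4, n-Ta6 and n-Ta22 lay in introns of Myo5a, Hkdc1 and Oprd1, and n-Ta3 and n-Ta5 lay between genes. n-Ta22, listed as tRNA-Ala with the anticodon CGC, was 88.9% identical to the tRNA-Glu gene n-Te3 but only 61.0% to its closest tRNA-Ala gene, n-Ta17. Their scores ranged from -0.99 to 0.59, the highest belonging to n-Ta4. n-Ta8 (AGC, chr4:132071923-132071994) is shown because it was the marginal case.
n-Ta8: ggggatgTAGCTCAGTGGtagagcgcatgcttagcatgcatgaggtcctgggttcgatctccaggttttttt
It has an exact A box but no match to either form of the B box, and it ends in T where other members have their acceptor stem. Its scores were -0.08 and -0.10 at TP0, 0.19 and 0.35 at TP36, 0.82 and 0.52 at TP48, and 0.22 and -0.10 at TP60. Only the first TP48 library was above its cutoff, by less than 0.01, and the gene did not pass the test at any time point.

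Among the sequence features, the bases at the wobble pair positions were found in most members and in almost no other tRNA gene. G at base 3 with T at the 4th base from the end was found in 36 of 40 tRNA-Ala genes (90%) and in 1 of 393 other tRNA genes, the tRNA-Cys gene n-Tc2. The 36 include n-Ta8, whose T at that position belongs to its final run of T. Both wider boxes were matched by 32 tRNA-Ala genes (80.0%), against 30.5% of all 433 tRNA genes, and both exact boxes by 18 (45.0%), against 4.6%. Of the 32 with both wider boxes 19 were occupied (59.4%), and of the 8 without 1 was, whereas among the other tRNA genes 50 of 100 with both (50%) and 228 of 293 without (77.8%) were. Many of these 100 are tRNA-Cys genes, an isotype of which only 7 of 57 genes (12.3%) were above a cutoff at TP0 or TP36. The shares among the other tRNA genes therefore rest in large part on that isotype. The exact boxes did not separate occupied from silent genes, since 7 of the 19 genes above the cutoff in 6 or more libraries had both and 11 of the 20 silent genes did. The 8 AGC genes whose B box reads GATCGATGCC, letters found in no other tRNA gene, lacked both exact forms, and all 8 were above the cutoff in 6 or more libraries.

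Whether the genes gained Pol III after PH was tested for all loci in 1 linear model (limma), and a locus counted as changed at a q value (the expected share of false calls) under 0.05 if it was above a cutoff. All changes called were increases. Of the 40 tRNA-Ala genes, 10 rose at TP36 over TP0, against a background of 21.8% of all loci (141 loci), 12 rose at TP48, against 38.2% (247), and 16 rose at TP60, against 43.2% (279). As a share of the family this was 25%, 30% and 40%, near or under the background, and the family includes its 20 silent genes. Of the genes above a cutoff at TP0 or at the later time point, 10 of 19 rose at TP36, against 29% of such loci, 12 of 20 at TP48, against 51.5%, and 16 of 19 at TP60, against 57.3%, but this filter is passed in part through the later scores. With Benjamini-Hochberg adjustment 9 genes rose at each time point, against 14.2% of all loci at TP36, 20.6% at TP48 and 27.2% at TP60. These were the 8 low genes of chromosome 13 described below, with n-Ta9 at TP36, n-Ta29 at TP48 and n-Ta27 at TP60. At TP48 and TP60 every locus above a cutoff with an unadjusted p under 0.05 had a q under 0.05. The median change over the 40 genes was 0.34 at TP36, 0.53 at TP48 and 0.46 at TP60, and over all loci it was 0.68, 0.88 and 0.96. Both libraries lay above both TP0 libraries in 37.5% of the 40 genes at TP36, 57.5% at TP48 and 52.5% at TP60. Over all loci these shares were 55.9%, 74.6% and 69.0%, so a lack of overlap with TP0 was common in these data. By location, 8 of 12 tRNA-Ala genes of chromosome 13 rose at TP36, against 51 of the 94 other tRNA genes there (54.3%), and all 12 had risen at TP60, against 82 of 94 (87.2%). By anticodon, 7 of 19 AGC genes, 2 of 10 CGC genes and 1 of 11 TGC genes rose at TP36, and 10, 3 and 3 at TP60.

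These counts rest on few libraries. At TP36 the count of 10 became 5 or 4 without TP0 replicate 1 or 2, 5 without TP36 replicate 1 and 17 without TP36 replicate 2, and at TP60 the count of 16 became 9 or 8 without TP0 replicate 1 or 2, 19 without TP60 replicate 1 and 8 without TP60 replicate 2. When each library was centred on its median over all loci, which lowers the change by 1.72 at TP36 and TP48 and by 1.94 at TP60, 8 genes rose and 9 fell at TP36, 8 rose and 8 fell at TP48, and 8 rose and 10 fell at TP60. Over all loci 63 rose and 325 fell at TP36, 78 and 252 at TP48, and 85 and 296 at TP60. Without centring the median score of the 20 silent genes was -0.149 to 0.080 in the 8 libraries. Centring thus also lowers loci that did not rise. n-Ta8, which passed a cutoff in a single library, was among those that fell at TP48 (-0.96), while its change without centring was 0.76. The 8 that rose under this centring were at each time point the 8 genes of chromosome 13 described next.

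**Figure D1:**
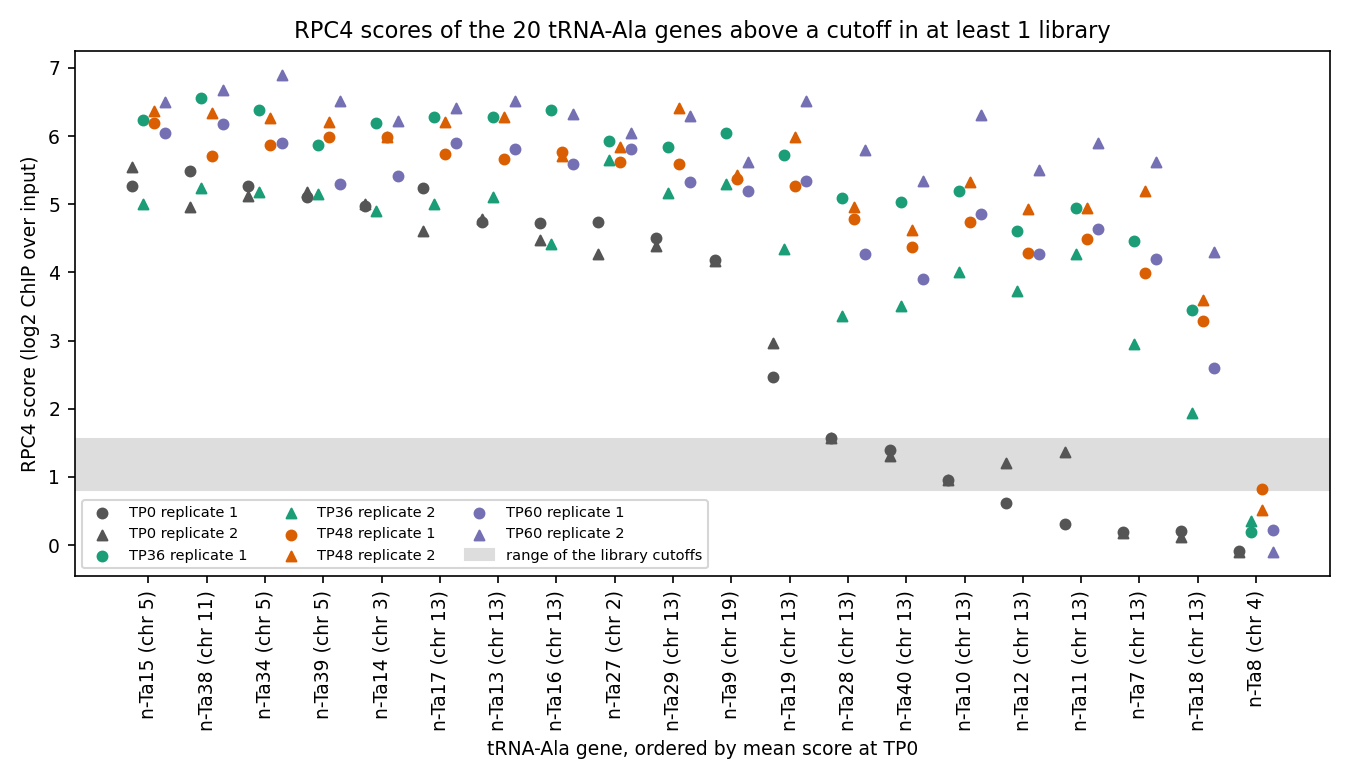
RPC4 score (log2 ChIP over input) of each of the 20 tRNA-Ala genes above a cutoff in at least 1 library, ordered by mean score at TP0, with 1 point per library, color for the time point, circles for replicate 1 and triangles for replicate 2, and a grey band for the range of the cutoffs (0.81 to 1.55). The 11 genes on the left start at 4.16 to 5.54 at TP0, the next 8 start at 0.12 to 2.96 and end between 2.60 and 6.51 at TP60, and n-Ta8 reaches at most 0.82.

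The genes that rose most were 8 genes of chromosome 13 that carried little Pol III before PH. In the 2 TP0 libraries these 8 scored between 0.12 and 2.96, while the other 11 of the 19 scored between 4.16 and 5.54, and no gene fell between. The first 4 lie within chr13:23377518-23504882 and are the AGC genes n-Ta10, n-Ta11, n-Ta12 and n-Ta7 of 73 bases.

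n-Ta7 (chr13:23504810-23504882) scored 0.19 and 0.18 at TP0, 4.46 and 2.95 at TP36, 4.0 and 5.19 at TP48, and 4.20 and 5.62 at TP60. Its TP0 libraries were at background, and every library after PH was far above them. It stood 3.52 above TP0 at TP36 (SE 0.64, q = 0.00211, limma) and 4.73 above TP0 at TP60 (q = 0.000221), a 26.5-fold higher ratio, and its change at TP48 ranked 1st of all loci. n-Ta10 (chr13:23377518-23377590) scored 0.96 and 0.95 at TP0, 5.2 and 4.0 at TP36, 4.75 and 5.33 at TP48, and 4.85 and 6.32 at TP60. Only its first TP0 library was above its cutoff, and the TP0 scores did not overlap with the later ones. The difference from TP0 was 3.64 at TP36 (SE 0.57, q = 0.00127) and 4.63 at TP60 (q = 0.000187).

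n-Ta11 (chr13:23390930-23391002) scored 0.30 and 1.36 at TP0, 4.94 and 4.28 at TP36, 4.50 and 4.94 at TP48, and 4.64 and 5.90 at TP60. Of the 40 genes it had the largest change at TP36, 3.77 (SE 0.55, q = 0.00124), which ranked 4th of all loci. n-Ta12 (chr13:23492664-23492736, minus strand like n-Ta7) scored 0.61 and 1.21 at TP0, 4.61 and 3.73 at TP36, 4.28 and 4.93 at TP48, and 4.28 and 5.51 at TP60. It was below the cutoff in both TP0 libraries and above it in all 6 later ones, with a change of 3.26 at TP36 (SE 0.53, q = 0.00137). These 4 genes were called at all 3 time points under each of 13 settings of the analysis.

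The other 4 lie within chr13:21332814-21351708 and hold all 3 anticodons. n-Ta40 (TGC, chr13:21332814-21332885) scored 1.40 and 1.3 at TP0, 5.04 and 3.50 at TP36, 4.38 and 4.62 at TP48, and 3.90 and 5.34 at TP60. n-Ta18 (AGC, chr13:21334439-21334510) scored 0.21 and 0.12 at TP0, 3.45 and 1.93 at TP36, 3.29 and 3.60 at TP48, and 2.60 and 4.30 at TP60. n-Ta18 was at background at TP0 and remained the lowest of the 19 genes in all 6 libraries after PH. n-Ta28 (CGC, chr13:21346089-21346160) scored 1.57 in both TP0 libraries, 5.09 and 3.36 at TP36, 4.79 and 4.96 at TP48, and 4.27 and 5.79 at TP60. n-Ta19 (AGC, chr13:21351637-21351708) scored 2.47 and 2.96 at TP0, 5.72 and 4.34 at TP36, 5.26 and 5.99 at TP48, and 5.34 and 6.51 at TP60. In all 4 genes the TP0 libraries lay below every later library.

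The changes of these 4 at TP36 were 2.92 for n-Ta40 (SE 0.60, q = 0.00408), 2.53 for n-Ta18 (SE 0.62, q = 0.0104), 2.66 for n-Ta28 (SE 0.63, q = 0.00863) and 2.32 for n-Ta19 (SE 0.58, q = 0.0104). At TP60 they were 3.27, 3.29, 3.46 and 3.21. The TP36 calls of n-Ta18, n-Ta28 and n-Ta19 were lost without either TP0 library or without TP36 replicate 1, and that of n-Ta40 without TP0 replicate 2, whereas at TP48 and TP60 all 4 were called in every setting.

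The other 11 genes were highly occupied before PH and changed less. The highest at TP0 was n-Ta15 (AGC, chr5:31190888-31190960), with 5.27 and 5.54 at TP0, 6.24 and 5.0 at TP36, 6.19 and 6.37 at TP48, and 6.05 and 6.5 at TP60. It ranked 19th of all loci at TP0. Its TP36 libraries lay on both sides of the TP0 libraries, and its changes of 0.21 at TP36 (q = 0.416), 0.87 at TP48 (q = 0.0754) and 0.87 at TP60 (q = 0.0802) did not pass the test.

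Neither did those of n-Ta14 and n-Ta39. n-Ta14 (AGC, chr3:19528995-19529067) scored 4.97 and 5.01 at TP0, 6.18 and 4.90 at TP36, 5.99 in both libraries at TP48, and 5.41 and 6.23 at TP60. n-Ta39 (TGC, chr5:125884620-125884691) scored 5.10 and 5.18 at TP0, 5.86 and 5.16 at TP36, 5.99 and 6.21 at TP48, and 5.29 and 6.51 at TP60. In both genes the second TP36 library was not above both TP0 libraries, and both TP48 and both TP60 libraries were higher.

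For 6 genes the rise passed the test only at later time points. The TGC genes n-Ta34 (chr5:125889842-125889913) and n-Ta38 (chr11:48647931-48648002) scored 5.26 and 5.13, and 5.49 and 4.96, at TP0. At TP60 n-Ta34 scored 5.90 and 6.90, a change of 1.21 (SE 0.51, q = 0.0426). At TP60 n-Ta38 scored 6.18 and 6.68, a change of 1.20 (SE 0.52, q = 0.0436). Both calls lie close to the threshold, and with Benjamini-Hochberg adjustment their adjusted p was 0.0971 and 0.0995. In the TP36 and TP48 libraries n-Ta34 scored 6.38 and 5.19, and 5.86 and 6.26, and n-Ta38 scored 6.56 and 5.24, and 5.71 and 6.33.

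The other 4 of the 6 lie on chromosome 13. n-Ta16 (AGC, chr13:21314455-21314526) scored 4.72 and 4.48 at TP0, 6.38 and 4.41 at TP36, 5.77 and 5.70 at TP48, and 5.58 and 6.33 at TP60. n-Ta17 (AGC, chr13:21325914-21325985) scored 5.24 and 4.60 at TP0, 6.28 and 5.0 at TP36, 5.74 and 6.21 at TP48, and 5.90 and 6.41 at TP60. Both rose at TP60 alone, by 1.36 (q = 0.046) and 1.23 (q = 0.0403), and at TP36 each had a library within or below the range of TP0. n-Ta13 (AGC, chr13:23523281-23523353) scored 4.74 and 4.79 at TP0, 6.28 and 5.11 at TP36, 5.66 and 6.28 at TP48, and 5.82 and 6.51 at TP60. n-Ta29 (CGC, chr13:23530566-23530637) scored 4.50 and 4.39 at TP0, 5.84 and 5.16 at TP36, 5.60 and 6.42 at TP48, and 5.33 and 6.29 at TP60. These last 2 rose at TP48, by 1.20 (q = 0.0406) and 1.56 (q = 0.0173), and at TP60, by 1.40 (q = 0.026) and 1.36 (q = 0.0266), and all their libraries after PH were above both TP0 libraries.

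Outside chromosome 13, n-Ta9 and n-Ta27 were the genes that rose at TP36, and they rose at TP48 and TP60 as well. n-Ta9 (AGC, chr19:3576263-3576335) scored 4.18 and 4.16 at TP0, 6.04 and 5.30 at TP36, 5.36 and 5.43 at TP48, and 5.19 and 5.62 at TP60. n-Ta27 (CGC, chr2:57034489-57034560) scored 4.73 and 4.27 at TP0, 5.93 and 5.65 at TP36, 5.63 and 5.84 at TP48, and 5.82 and 6.05 at TP60. Neither gene's TP0 libraries overlapped with the later ones. The change at TP36 was 1.5 for n-Ta9 (SE 0.42, q = 0.0185) and 1.29 for n-Ta27 (SE 0.40, q = 0.0279), a 2.83-fold and a 2.44-fold higher ratio, and under centring of the libraries both values turned negative (-0.22 and -0.44) without passing the test. Both TP36 calls were also lost without either TP0 library or without TP36 replicate 1, and that of n-Ta27 with Benjamini-Hochberg adjustment (adjusted p = 0.0548) and with a variance trend (q = 0.0558).

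**Figure D2:**
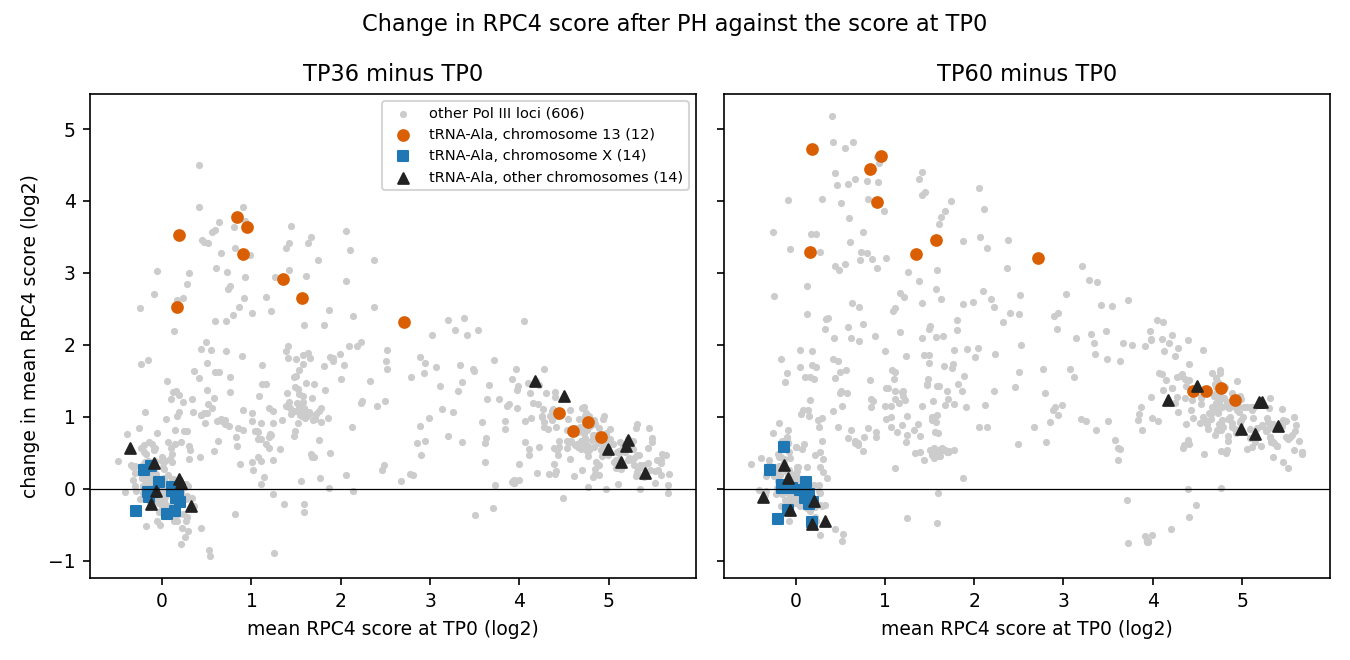
Change in mean RPC4 score from TP0 (vertical axis, log2) at TP36 (left) and TP60 (right) against the mean score at TP0 (horizontal axis, log2), with 1 point per locus, grey for the 606 other Pol III loci, orange circles for the 12 tRNA-Ala genes of chromosome 13, blue squares for the 14 of chromosome X and black triangles for the 14 on other chromosomes. The 8 low genes of chromosome 13 lie at changes of 2.32 to 3.77 at TP36, the 14 genes of chromosome X lie around 0, and both axes share the TP0 libraries.

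No tRNA-Ala gene changed between the time points after PH. TP48 against TP36, TP60 against TP36 and TP60 against TP48 each gave 0 called genes and 0% of all loci (limma q, and 0 with Benjamini-Hochberg adjustment), and 0 tRNA-Ala genes had an unadjusted p under 0.05, while 5, 7 and 15 of the loci above a cutoff had. With 2 pools per time point this does not show that the levels were alike. The largest of these differences among the 20 occupied genes was 1.20 for n-Ta7 at TP60 over TP36.

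The scores of the occupied genes were closer to one another after PH than before it, a description that rests in part on how the genes were chosen, since a gene above the cutoff in 6 or more libraries can be at background at TP0 but not at all later time points. The SD over the 19 genes was 2.09 and 1.92 in the TP0 libraries and 0.61 to 0.97 in the 6 later ones. Over the 261 other tRNA genes chosen in the same way, it was 1.78 and 1.64 at TP0 and 0.98 to 1.10 later. The gap between the medians of the 11 genes high at TP0 and the 8 low ones was 4.18 and 3.53 at TP0, and it was 0.71 to 1.54 in the later libraries. The 11 remained higher in median in all 8 libraries. The pair of groups was formed from the TP0 scores, so this narrowing is a description.

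Genes with the same sequence did not always have the same occupancy. n-Ta28 and n-Ta29, identical over all 72 bases and both on chromosome 13, differed by -2.93 and -2.82 in the TP0 libraries (n-Ta28 minus n-Ta29). Their difference was -0.74 and -1.80 at TP36, -0.81 and -1.46 at TP48, and -1.06 and -0.50 at TP60, so that n-Ta28 was lower in 8 of 8 libraries. The 100 bases upstream of these 2 genes were 33.0% identical and those downstream 35.0%. In the other identical sets of occupied genes the members differed by at most 0.65 at TP0. Over all libraries, n-Ta14 and n-Ta15, on different chromosomes, differed by 0.05 to 0.64 in a library, n-Ta16 and n-Ta17 by up to 0.59, n-Ta38 and n-Ta39 by up to 0.89, and n-Ta10, n-Ta11 and n-Ta12 by up to 0.81, while their upstream 100 bases were 25% to 42% identical.

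**Figure D3:**
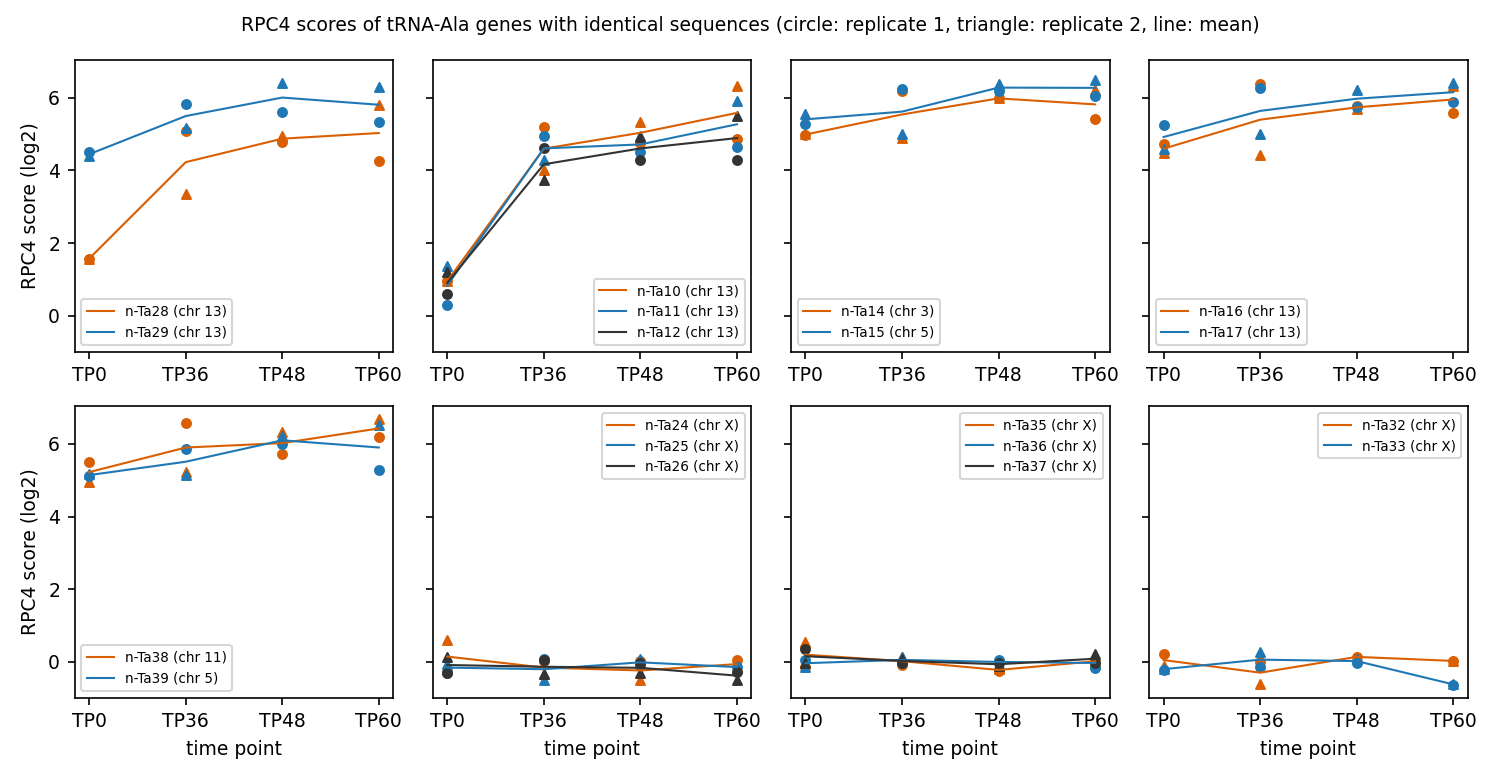
RPC4 scores (vertical axis, log2) at TP0, TP36, TP48 and TP60 for the 8 sets of tRNA-Ala genes with identical sequences, 1 panel per set, with a color per gene, circles for replicate 1, triangles for replicate 2 and a line through the means. n-Ta28 lies 2.88 below n-Ta29 in the mean of TP0 and 0.78 below it at TP60, whereas the 3 sets of chromosome X in the lower row stay between -0.63 and 0.61.

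Neighbours of the low genes on chromosome 13 rose too. In the stretch that holds n-Ta10 to n-Ta7 each of the 4 low AGC genes has a tRNA-Val gene within 240 bp, namely n-Tv4 beside n-Ta10 (175 bp between them), n-Tv6 beside n-Ta11 (207 bp), n-Tv2 beside n-Ta12 (205 bp) and n-Tv5 beside n-Ta7 (234 bp). Their scoring windows overlap by 66 to 125 bp, so that each pair shares some fragments. n-Tv5 scored 4.05 and 5.89 at TP60, against 0.95 and 0.38 at TP0, and n-Tv4 scored 4.22 and 5.43 at TP60, against 0.35 and 0.54 at TP0. Farther away, where windows do not overlap, n-Tv12 (988 bp from n-Ta11) rose by 3.18 and n-Tv10 (791 bp from n-Ta7) by 2.62 at TP36 (q = 0.00127 and 0.00371). Beside the high gene n-Ta29, 514 bp away, the tRNA-Ile gene n-Ti8 scored 5.46 and 5.42 at TP0 and 6.46 and 5.55 at TP36, a change that did not pass the test (0.56, q = 0.225). Like n-Ta29, n-Ti8 passed it at TP48 (1.29, q = 0.0283) and at TP60 (1.10, q = 0.0407).

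High and low genes also lay in the same stretches of chromosome 13. n-Ta13 and n-Ta29, at 4.39 to 4.79 in the TP0 libraries, lie within 40 kb of n-Ta12 and n-Ta7, at 0.18 to 1.21, and n-Ta17, at 5.24 and 4.60, lies within 7 kb of n-Ta40, at 1.40 and 1.3. Away from chromosome 13, 7 of the 8 neighbours within 1500 bp of an occupied member scored between 4.35 and 5.39 in the TP0 libraries, and the exception was n-Tr3. Pairs of silent members on chromosome X that also lie this close are not counted here. n-Ty2, a tRNA-Tyr gene 124 bp from n-Ta14, scored 4.90 and 5.39, and n-Tg29, a tRNA-Gly gene 244 bp from n-Ta27, scored 5.13 and 4.35. The scoring windows overlap by 176 bp for n-Ty2 and n-Ta14 and by 56 bp for n-Tg29 and n-Ta27, so these pairs share some fragments too. The others were the tRNA-Tyr genes n-Ty1 beside n-Ta14 and n-Ty9 beside n-Ta15, the tRNA-Asp genes n-Td15 beside n-Ta39 and n-Td14 beside n-Ta34, and the tRNA-Lys gene n-Tk10 beside n-Ta38. None of these 7 passed the test at TP36, with changes of 0.28 (n-Ty2, q = 0.404) to 0.88 (n-Ty9, q = 0.127), where n-Ta27 rose by 1.29. Later, n-Tg29 passed it at TP48 (q = 0.0361), n-Ty9 at TP48 and TP60 (q = 0.034 and 0.0403) and n-Ty1 at TP60 (q = 0.0395). The rest of the 7 passed it at no time point. The tRNA-Arg gene n-Tr3, 963 bp from n-Ta14, was lower at TP0 than the other 7 and passed the test at TP36. It scored 5.68 and 4.54 at TP36, against 3.58 and 3.76 at TP0, and rose by 1.45 (SE 0.51, q = 0.0427).

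**Figure D4:**
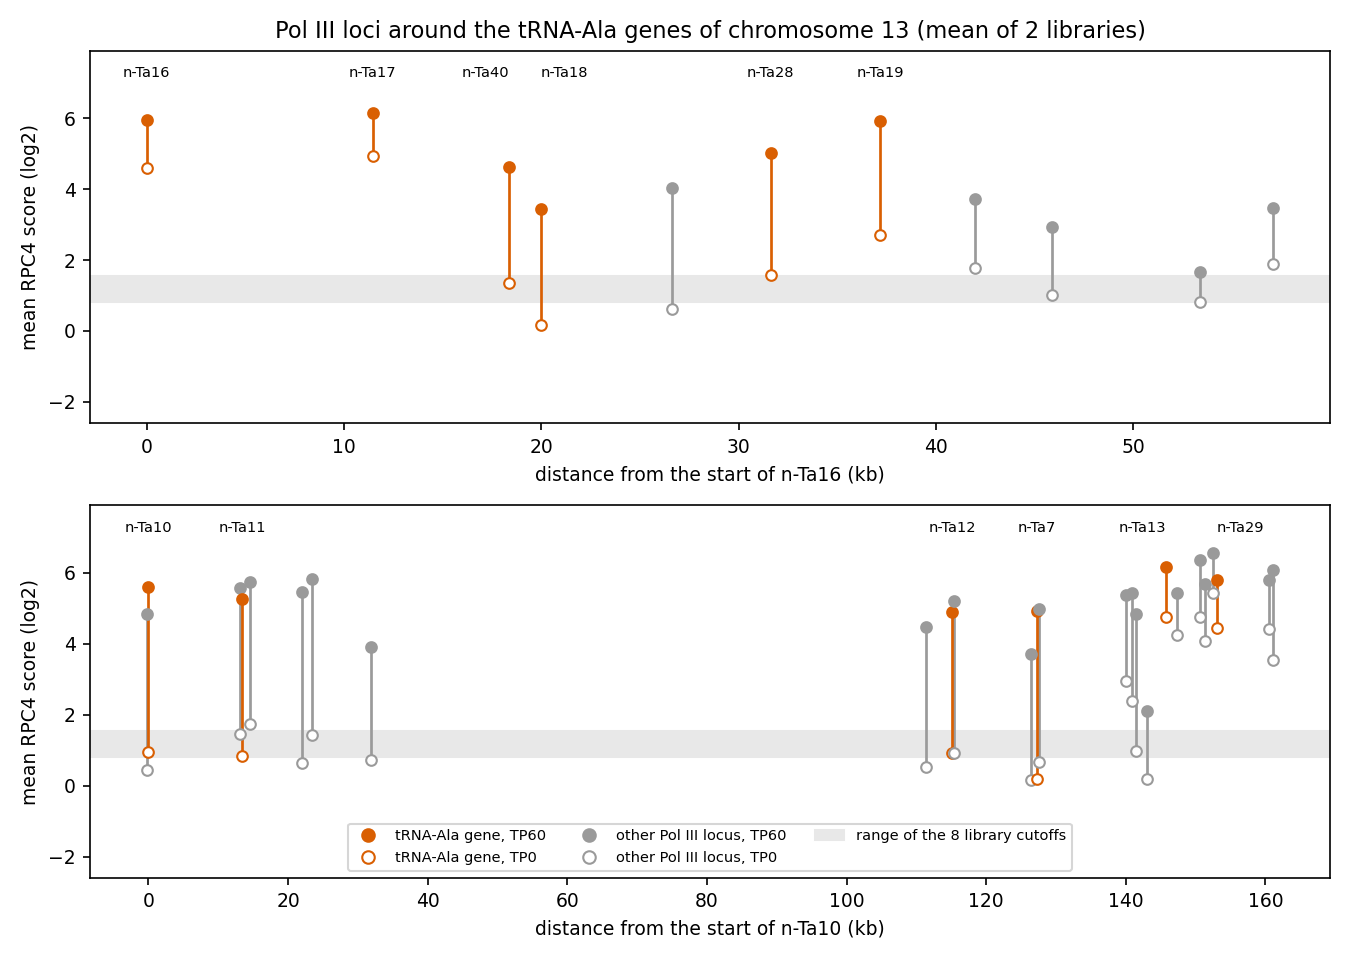
Mean RPC4 score of 2 libraries (vertical axis, log2) at TP60 (filled) and TP0 (open) for every Pol III locus around the tRNA-Ala genes of chromosome 13, by distance in kb from the start of n-Ta16 (top) and of n-Ta10 (bottom), with orange for tRNA-Ala genes, grey for other loci and a grey band for the cutoffs. n-Ta16, n-Ta17, n-Ta13 and n-Ta29 start above 4.4 and move by 1.23 to 1.40, and the 8 other tRNA-Ala genes start below 2.8 and move by 3.21 to 4.73.

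The distance classes of the deposited table placed 18 tRNA-Ala genes within 1.5 kb of another Pol III locus, of which 11 were occupied. Among the others, 2 of the 12 closer than 2.65 kb to a gene of Pol II were occupied, and 7 of the 10 that were not. The silent genes among these 12 all lie on chromosome X or inside a protein-coding gene, so the class cannot be told apart from those groups. The occupied genes n-Ta15 and n-Ta14, counted in the first class, lie 179 and 318 bp from the start of a protein-coding transcript. CpG dinucleotides in the 300 bases upstream numbered 2 to 22 (median 9) in the 19 genes above the cutoff in 6 or more libraries and 0 to 9 (median 2) in the 20 silent genes. The most were upstream of n-Ta14 (22), n-Ta9 (19) and n-Ta27 (15), and the fewest among the 19 upstream of n-Ta13 (2), which scored 4.74 and 4.79 at TP0, so the counts overlapped between the classes.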

How the data were processed

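RPC4 ChIP-seq scores of 8 libraries were used, grouped by sample title. The deposited values are log2 scores: the authors placed fragments on the NCBI37 (mm9) genome with ELAND of CASSAVA 1.8.2, brought each total to the median of the samples and divided ChIP by input with a pseudocount of 16, which understates changes at weakly occupied loci. The deposited percent columns give the share of a score from fragments with multiple matches. Of the per-sample columns, 0 could not be mapped. No counts were used, so depth and counting precision are unknown, and the error is the spread between 2 pools.

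All loci were fitted with limma 3.58.1 (R 4.3.3), 1 mean per time point, with empirical Bayes moderation and two-sided tests. Values of q used a spline estimate of true nulls (lambda 0.05 to 0.95, 3 degrees of freedom), and a locus was called only if either time point had a library in which it exceeded the cutoff. The fit was tested on simulated data with independent noise in each locus and library. Shifts of whole libraries, as seen between the replicates here, were not simulated. Alternatives were Benjamini-Hochberg adjustment, a replicate block, a fit of the pair of time points alone, centred libraries, only loci above a cutoff, cutoffs raised by 0.5, loci with over 50% multiple matches left out, a variance trend, and each library left out. Sequences came from the NCBI37 genome and gene annotation from GENCODE, read with Python 3.11.15 on the gene strand only. The members and lists were chosen with earlier results of these data known, and the wider boxes, the B box letters and the split by chromosome X after the data were seen. Every member above a cutoff is named, silent members only where highest or compared, and other loci within 1500 bp of a member. n-Te3 and n-Tc2 lie outside this rule and were named after their sequences were seen. Sequences are printed for some members only, and 1 that was to be shown is not reported here.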

Additional observations from a re-analysis of the deposited data

How the results depend on the processing

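The rises of n-Ta7, n-Ta10, n-Ta11 and n-Ta12 at all 3 time points were called in 13 of 13 settings, and those of n-Ta18, n-Ta19, n-Ta28 and n-Ta40 at TP48 and TP60 were too. Other calls depended on the setting, and with 2 pools a time point, small changes cannot be resolved; the cause of each difference below was not tested beyond the construction of the setting. The count of genes changed at TP36 (10) was 17 with centred libraries and 4 to 17 with a library left out, that at TP48 (12) was 20 when TP48 and TP0 alone were fitted and 20 with only loci above a cutoff, and 8 to 9 with a library left out, and that at TP60 (16) was 9 with Benjamini-Hochberg adjustment and 8 to 19 with a library left out. The TP48 counts without a library were under 12 for each library left out. The median change over the 40 genes with centred libraries was -1.39 at TP36, -1.19 at TP48 and -1.48 at TP60, without loci of over 50% multiple matches it was 0.80 at TP48 and 0.76 at TP60, and with a library left out it was 0.083 to 0.35 at TP36, 0.44 to 0.64 at TP48 and 0.28 (without TP60 replicate 2) to 0.62 at TP60.

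Centring turned the change negative, at TP36, TP48 and TP60 in this order, to -0.44, -0.49 and -0.50 for n-Ta27, -1.17, -0.72 and -1.11 for n-Ta14, -1.36, -0.96 and -1.79 for n-Ta8, -1.51, -0.84 and -1.07 for n-Ta15, -1.35, -0.76 and -1.17 for n-Ta39, -1.13, -0.85 and -0.73 for n-Ta34, -1.05, -0.92 and -0.73 for n-Ta38, -0.92, -0.58 and -0.58 for n-Ta16, -1.0, -0.66 and -0.70 for n-Ta17, -0.80, -0.51 and -0.54 for n-Ta13, -0.67, -0.16 and -0.57 for n-Ta29, and -0.22, -0.49 and -0.70 for n-Ta9. With a library left out, the TP36 change ranged between -0.089 and 1.20 for n-Ta14, -0.40 and 0.83 for n-Ta15, -0.008 and 1.19 for n-Ta34 and -0.19 and 1.78 for n-Ta16, each negative only without TP36 replicate 1, and the TP60 change of n-Ta8 ranged between -0.009 and 0.31, negative without TP60 replicate 1. The lone library of a time point was then assumed to vary like the others.

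The sample titles name the replicates Series 1 and Series 2 but do not say what a series shared. Every replicate 1 library had a lower cutoff than every replicate 2 library. Same-numbered libraries did not deviate together throughout (correlation over 492 loci of 0.53 for TP0 with TP36, 0.10, 0.03, 0.02, -0.28 and 0.30 for the other pairs of time points). The main fit therefore did not pair the pools by number, and whether a series shared a batch is unknown. With a replicate block the counts were 10, 11 and 12. The calls lost were those of n-Ta13 at TP48 and of n-Ta16, n-Ta17, n-Ta34 and n-Ta38 at TP60 (limma q of 0.0536 to 0.0625).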
